A study of Mus musculus with 8 samples.

Results

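Mnat1 (Entrez gene 17420) and Ccnd2 (gene 12444) are 2 of the 1387 genes that could be named on the arrays. Mnat1 is the spot of clone MG-3-15a14, which carries the accession NM_008612, and Ccnd2 is the only spot, clone MG-6-42b20, whose accession (NM_009829) is a RefSeq transcript of that gene. Each gene had 1 spot per array, which carried no flag on any of the 8 arrays. On the arrays of mice 1 and 2 no spot at all was flagged, so there a missing flag says nothing about quality. The pair was selected on the knockout over pool ratios, which were already known, so these ratios are described below and not tested. They are the values that put the pair in view and support no further statement.

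Heart RNA came from 4 male Mfap4-/- mice on the C57BL/6N background at 19 weeks of age. The comparison sample was 1 pool of heart RNA from male wild-type (wt) mice of the same background and age. Each knockout mouse was hybridised against that pool on 2 arrays, one with the mouse in Cy5 and one with it in Cy3, which gave 8 two-colour spotted cDNA arrays. The labels put 4 mice in the pool, while the labelling protocol speaks of 6, and no wt mouse was hybridised singly. The wt spread is therefore unknown, and any departure of the pool from an average wt heart enters all 4 mice alike. The labels do not say how the null allele was made, and no spot carried the name of Mfap4, so the loss of the gene was not checked on the arrays.

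MAT1, the product of Mnat1, holds CDK7 and cyclin H together as the CDK-activating kinase. Free or as part of the transcription factor TFIIH, this kinase phosphorylates the activation loop of cell cycle kinases and the C-terminal repeats of RNA polymerase II. Cyclin D2, the product of Ccnd2, is a D-type cyclin that binds CDK4 or CDK6, and these kinases in turn need the activating phosphate and then phosphorylate the retinoblastoma protein early in the cell cycle. In mouse heart, MAT1 is known to be needed for the coactivator PGC-1 to drive genes of mitochondrial metabolism, and extra cyclin D2 in heart muscle cells is known to raise their DNA synthesis.

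Signals are given as spot intensity minus local background, before any normalization. With the mouse in Cy5, the Mnat1 spot had 240, 224 and 136 units in the knockout channel for mice 2 to 4, against 341, 150 and 150 units in the pool channel of the same arrays. For mouse 1 in Cy5 it had 501 units in the knockout channel, which was 0.942 times the pool channel. With the mouse in Cy3, it had 426, 268, 135 and 101 units in the knockout channel, against 690, 380, 277 and 492 units in the pool channel. The knockout channel was the lower one on 7 of the 8 arrays, and the exception was mouse 3 in Cy5. On that array the whole slide leaned towards the knockout channel, with a median log2 ratio over all unflagged spots of 0.95 before normalization, and the Mnat1 spot at 0.58 lay below that median.

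With the mouse in Cy5, the Ccnd2 spot had 166, 166, 168 and 122 units in the knockout channel for mice 1 to 4, against 220, 100, 54 and 52 units in the pool channel. With the mouse in Cy3 it had 200, 166, 85 and 86 units in the knockout channel, against 141, 87, 111 and 103 units in the pool channel. The knockout channel was the higher one on 5 of the 8 arrays before normalization. In the pool channel the Ccnd2 spot was between 1.38 and 2.05 times its local background, so small errors in background weigh on its ratio. The spot of Mnat1 was between 1.61 and 3.83 times its background in the knockout channel and between 1.96 and 4.19 times in the pool channel. No pixel of either spot was saturated.

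**Figure D1:**
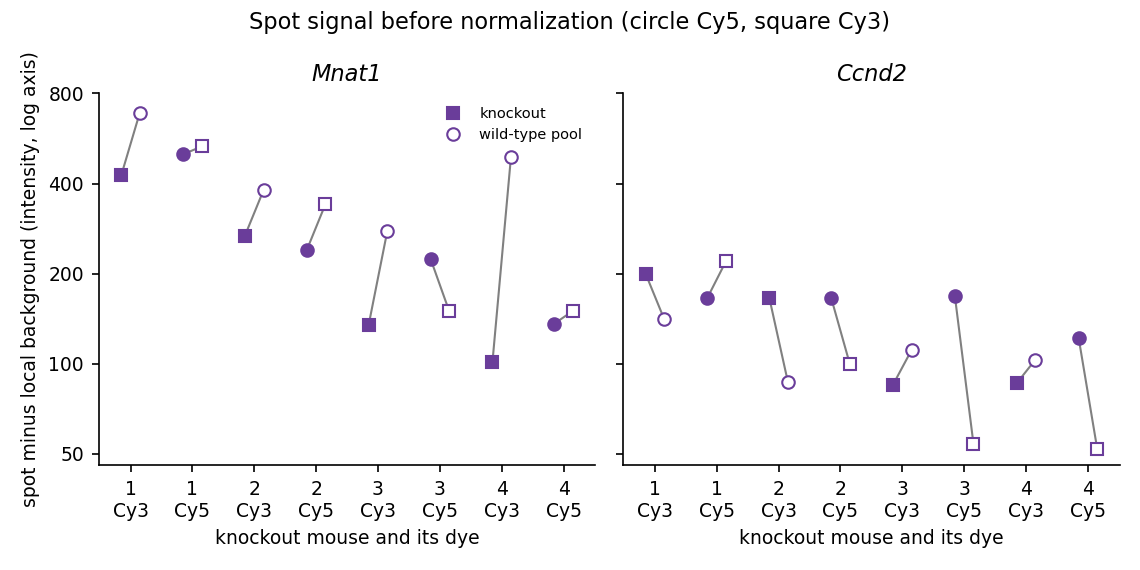
Spot intensity minus local background (log axis, arbitrary scanner units) of Mnat1 and Ccnd2 on each of the 8 arrays, labelled by knockout mouse and the dye of that mouse, with the knockout channel as filled and the pool channel as open symbols. Mnat1 was lower in the knockout channel on 7 of 8 arrays and Ccnd2 higher on 5 of 8, before normalization.

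After loess normalization within each array, which removes the part of a ratio that varies with brightness, the log2 ratio of knockout over pool was below 0 for Mnat1 on all 8 arrays. With the mouse in Cy5 mice 1 to 4 had -0.29, -0.59, -0.62 and -1.07, and with it in Cy3 they had -0.59, -0.85, -0.26 and -1.25. Both arrays of mouse 4 lay below the 6 other arrays. Averaged per mouse, the log2 ratio was -0.44, -0.72, -0.44 and -1.16 in mice 1 to 4, with a mean of -0.69 ± 0.34 (SD, n = 4 mice) and a fold of 0.620. Mice 1 and 3 did not differ beyond the spread of their own 2 arrays, and mouse 4 was the lowest. Without mouse 4 the mean was -0.53. In heart RNA, fewer cells that express a gene and less RNA per cell cannot be told apart.

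Of the 8142 clones with a value on all 8 arrays, 38 had a lower mean log2 ratio than Mnat1. A log2 ratio below 0 on all 8 arrays, the pattern for which Mnat1 stood out, was found in 1.47% of these clones, and one below 0 in all 4 mice in 8.49%. The spread of Mnat1 between mice was also wide: its SD exceeded that of 90.6% of the tested clones. A low mouse 4 was not particular to Mnat1 among clones with low ratios. Letm1, for one, had -0.28, -0.36, -0.37 and -0.84 in mice 1 to 4. The order was another in Gfra1, with -0.47, -0.44, -0.34 and -0.21. No clone of the 8142 passed an adjusted p of 0.05 in limma (0% called), while 936 clones, or 11.5%, had an unadjusted p under 0.05.

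One Mnat1 measurement depended on how the spot was summarised. On the array of mouse 2 in Cy3, the median pixel of the knockout channel was 399 and the mean pixel 880, and 0% of the spot's pixels exceeded the background by 1 SD of it. The other 7 knockout channel values for this percentage ran from 63 to 98. The pool channel of the same spot was unusual too: its percentage was 14, beside 82 to 99 on the other 7 arrays. Its median pixel was 580 and its mean pixel 709. With mean pixels in place of medians throughout, a choice made after seeing the data, Mnat1 on that array had a log2 ratio of 0.058, and 7 of 8 arrays lay below 0, with a mean over mice of -0.55. With this array left out altogether the mean was -0.66. With all spots kept, the 8 spots printed around Mnat1 on the slide had mean log2 ratios between -0.51 and 0.23. Their median was -0.052, and 6 of the 8 lay below 0. Of the 8142 tested clones, which leave out flagged spots, 3378 lay below 0. The 8 spots around Ccnd2 ran from -0.27 to 0.22, and 4 lay below 0.

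The log2 ratio of Ccnd2 was above 0 on 7 of the 8 arrays. With the mouse in Cy5 mice 1 to 4 had -0.37, 0.49, 0.34 and 0.18, and with it in Cy3 they had 0.41, 0.46, 0.075 and 0.20. In mouse 1 the 2 dye orientations had opposite signs, and that mouse averaged to 0.019. With mean pixels 6 of 8 arrays lay above 0, since mouse 3 in Cy3 was then at -0.077, and the mean over mice was 0.23. Mice 2, 3 and 4 averaged 0.48, 0.21 and 0.19. The mean was 0.22 ± 0.19 (SD, n = 4 mice), a fold of 1.17, so the 4 mice lay above 0 and the mean was close to the spread between them. It rested in good part on mouse 2, without which it was 0.14, and without mouse 1 it was 0.29. Among all tested clones 12.3% lay above 0 in all 4 mice, and 396 of the 8142 had a higher mean log2 ratio than Ccnd2.

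**Figure D2:**
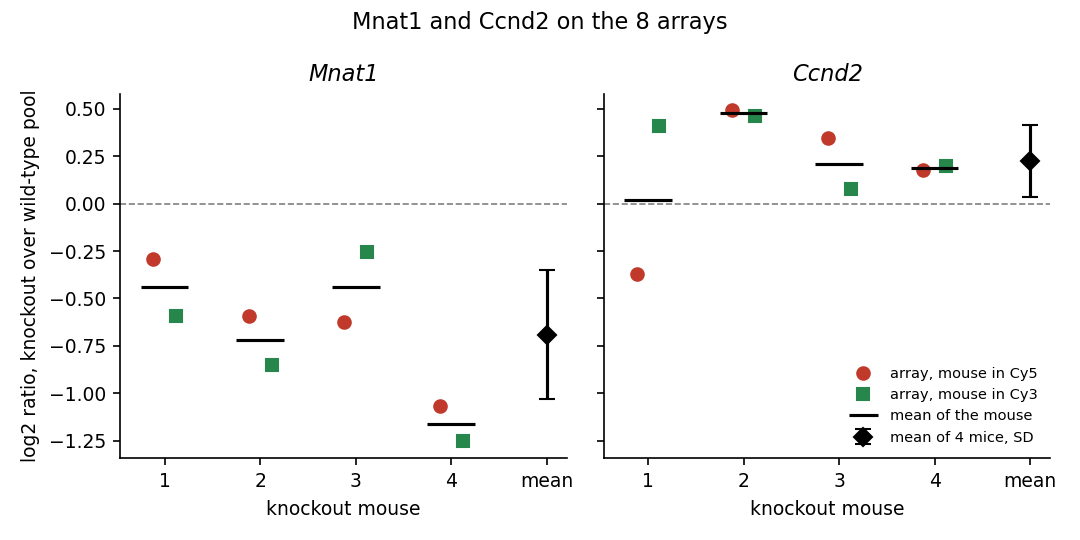
Log2 ratio of knockout over wild-type pool after loess normalization, for Mnat1 and Ccnd2, by knockout mouse, with circles for the Cy5 arrays of the mice, squares for their Cy3 arrays, bars for the mean of a mouse and a diamond with SD for the mean of 4 mice. All 8 Mnat1 points lie below 0, and 7 of 8 Ccnd2 points lie above 0, the exception being mouse 1 in Cy5.

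The averages of Mnat1 and Ccnd2 lay on opposite sides of 0 in each mouse, and their sizes did not run in parallel. Mouse 4 had the lowest Mnat1 value, and its Ccnd2 value of 0.19 was the second lowest. Mouse 2 had the highest Ccnd2 value and the second lowest Mnat1 value. With only 4 mice no correlation between the genes was computed. Mice 1 and 2, whose arrays carry no spot flags, had mean log2 ratios of -0.58 for Mnat1 and 0.25 for Ccnd2. Mice 3 and 4, on whose arrays between 28.2% and 43.0% of spots carry a flag, had -0.80 and 0.20. Since each gene had 1 sign in all 4 mice, both directions had to be present within each of these sets of 2 mice.

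Exchanging the dyes shows how much of a ratio belongs to the dye and not to the mouse. For Mnat1 the mean log2 ratio was -0.64 ± 0.32 over the Cy5 arrays and -0.74 ± 0.42 over the Cy3 arrays (SD, n = 4 arrays each). The difference within mice, Cy5 minus Cy3, was 0.095 ± 0.31 (SD, n = 4 mice); it is given without a test, since the choice of a gene with 1 sign on every array limits the dye difference it can have. With median centring in place of loess this difference was 0.60, the highest of 15 alternatives. For Ccnd2 the means were 0.16 ± 0.38 in Cy5 and 0.29 ± 0.18 in Cy3, a difference of -0.13 ± 0.46 (SD, n = 4 mice) that did not pass in limma's fit of the dye difference across all clones (adjusted p = 0.702). This does not show that Ccnd2 is free of a dye effect, since its difference ran from -0.78 in mouse 1 to 0.27 in mouse 3. Ccnd2 was also chosen on its ratios, which may limit its dye difference in part. Among all tested clones, 11.1% had a dye difference at an adjusted p under 0.05. The median size of the dye difference over these clones was 0.29. A dye difference sets 1 array of a mouse against the other, while the knockout ratio averages them, so their sizes are not comparable.

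**Figure D3:**
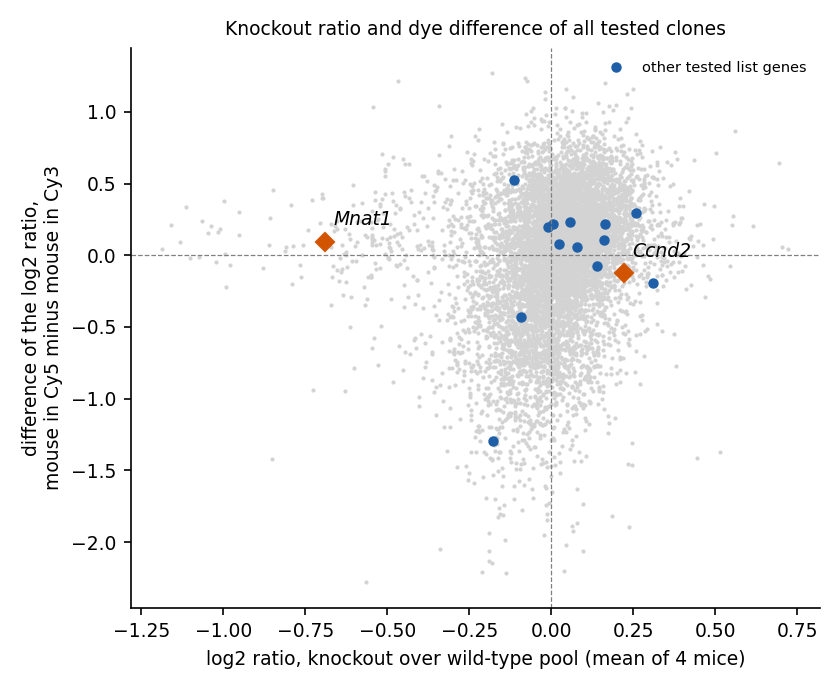
Each grey point is 1 of 8142 tested clones, with the mean log2 ratio of knockout over pool on the x axis and the difference of the log2 ratio between dye orientations (mouse in Cy5 minus mouse in Cy3) on the y axis; blue points are other tested genes of the cell cycle and transcription lists. Mnat1 and Ccnd2 lie at 0.095 and -0.13 on the dye axis, while the vertical spread of the clones is wider than the horizontal one.

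The authors' deposited value table gave the same directions. In it, Mnat1 lay between -1.77 and -0.34 on the 8 arrays and Ccnd2 between -0.65 and 0.71, with Ccnd2 below 0 only for mouse 1 in Cy5. Each column tracked the background-subtracted log2 ratio of knockout over pool, shifted by 1 constant per array (Spearman's rho across spots of at least 0.998), and what sets the constant is unknown. With spots carrying a flag left out and the dye swaps averaged, the table gave means of -0.81 for Mnat1 and 0.27 for Ccnd2.

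The direct partners of both proteins were sparsely measured. Of the 10 genes of the CDK-activating kinase and TFIIH, only Mnat1 and Ccnh were named on the array, and both were tested. Ccnh, which encodes cyclin H, had log2 ratios of 0.0061, 0.011, -0.054 and 0.13 in mice 1 to 4, with a mean of 0.023 ± 0.077 (SD, n = 4 mice; limma adjusted p = 0.940). Its mice lay on both sides of 0, all above the highest Mnat1 value. Cdk7 and the core TFIIH subunits were not measured under a name.

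Of the 6 genes for D cyclins and their kinases, Ccnd2 and Ccnd3 were named and tested. Ccnd3, which encodes another D-type cyclin, had log2 ratios of 0.00061, -0.31, -0.067 and 0.014 in mice 1 to 4, with a mean of -0.091 ± 0.15 (SD, n = 4 mice; limma adjusted p = 0.725). Its mean was -0.31 on the Cy5 arrays and 0.12 on the Cy3 arrays. The inhibitor gene Cdkn1b, which encodes p27, and the retinoblastoma gene Rb1 were on the array, but flags on 3 and 1 of the 8 arrays excluded them. When flagged spots were included, Cdkn1b lay at 0.016 ± 0.19 and Rb1 at -0.23 ± 0.42 (SD, n = 4 mice).

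Over all cell cycle and transcription lists, 27 of the 250 genes other than the pair were named on the array, and 13 of these were tested. Of the 13, 9 (69.2%) were higher than 0 and 4 lower, beside 58.5% higher than 0 among all tested clones, and their median log2 ratio was 0.058, beside 0.025 over all tested clones. In limma 0 of the 13 passed the threshold, and 2, or 15.4%, had an unadjusted p under 0.05, beside 11.5% of all tested clones. These were Gadd45g, a growth arrest and DNA damage gene, at 0.26 ± 0.13 (adjusted p = 0.263), and Mtor, the growth-controlling kinase, at 0.31 ± 0.29 (adjusted p = 0.324; SD, n = 4 mice for both). Gadd45g lay above 0 in all 4 mice, from 0.14 to 0.39, with 0.41 in Cy5 and 0.11 in Cy3. Mtor lay at 0.67 in mouse 2 and at -0.025 in mouse 4.

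Among partners further along, the pocket protein gene Rbl2 lay at 0.14 ± 0.31 and the retinoblastoma-binding protein gene Rbbp7 at 0.058 ± 0.20. Ccnk, which encodes the cyclin of transcription kinases, lay below 0 in all 4 mice at -0.18 ± 0.11, and this mean joined -0.82 in Cy5 with 0.47 in Cy3. The 2 dye orientations of Ccnk thus had means of opposite sign. Ppargc1a, which encodes PGC-1 alpha, lay at 0.0071 ± 0.11, and Ncoa1, a nuclear receptor coactivator, at 0.16 ± 0.37. The repair gene Ddb1 lay at 0.078 ± 0.11, the kinase gene Akt2 at -0.0092 ± 0.085, the p53 inhibitor gene Mdm4 at 0.16 ± 0.13 and the replication origin gene Orc3 at -0.11 ± 0.34 (all SD, n = 4 mice). Proliferation markers could not be followed: of the 41 genes for G2 and mitosis 2 were named and 0 tested, and of the 36 for replication 5 were named and 1 tested.

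**Figure D4:**
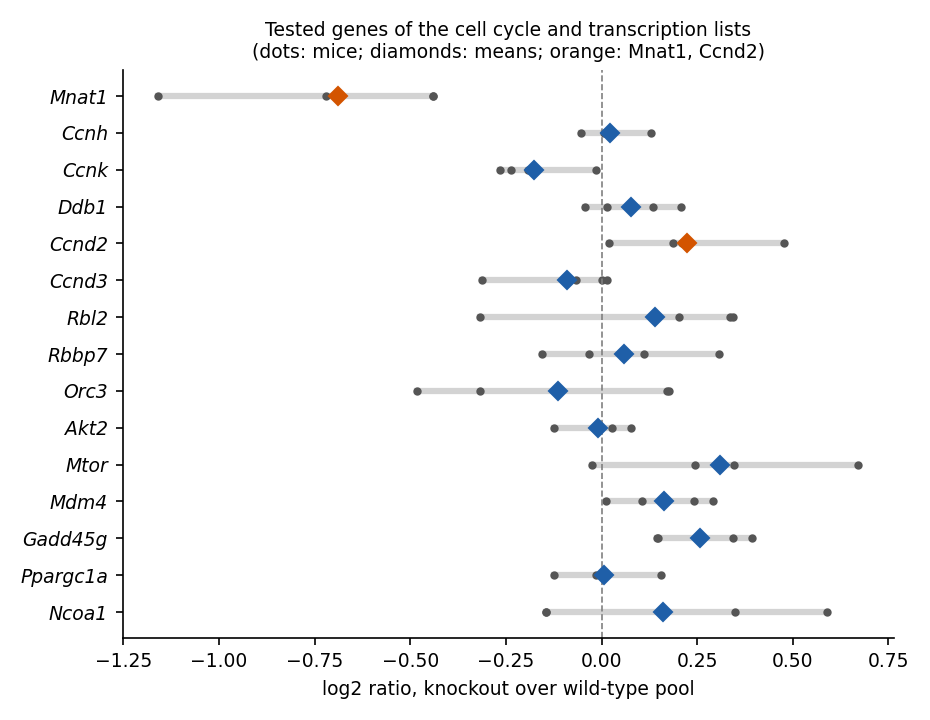
Log2 ratio of knockout over wild-type pool for the 15 tested genes of the cell cycle and transcription lists, with dots for the 4 mice, a bar for their range and a diamond for their mean (orange for Mnat1 and Ccnd2). Mnat1 lies at -0.69, and the means of the other genes lie between -0.18 and 0.31.

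The heart label could not be checked against a set of markers, since of 18 cardiomyocyte markers only Mybpc3, a sarcomere protein gene, was named. Its log2 ratio was 0.11 ± 0.084 (SD, n = 4 mice). Over all cell type marker lists 15 of 99 genes were named and 10 tested, with 8 (80%) above 0, 2 below and 0 past the threshold in limma, beside 58.5% above 0 among all tested clones. One of the 10, or 10%, the lymphocyte gene Cd4, had an unadjusted p under 0.05, beside 11.5% of all tested clones. Whether the cell make-up of the hearts has a part in the ratios of Mnat1 and Ccnd2 was not tested.

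Among 584 named genes, the profiles most like Mnat1 over the 8 arrays were those of Wfs1, an endoplasmic reticulum membrane protein gene (Pearson's r = 0.875), the phospholipase gene Plcb3 and the glycosidase gene Myorg (both at least 0.825). Their mean log2 ratios were 0.021, -0.17 and -0.31. Unnamed clones, which make up most of those tested, were left out of this search. Pearson's r leaves out the level of a gene, so a like profile says nothing about a like level. Most like Ccnd2 were Gclm, which encodes a subunit of glutathione synthesis (0.842), Sh3bp5, a mitochondrial outer membrane protein gene (0.809), and Oard1, an ADP-ribose hydrolase gene (0.785). Their mean log2 ratios were 0.042, 0.099 and 0.038. The arrays share the pool, and each mouse stands behind 2 of them; over all 584 genes r ran from -0.880 to 0.875 for Mnat1 and from -0.942 to 0.842 for Ccnd2.

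The size of both ratios varied with the processing, and the direction did not in any of the 21 alternatives run. In part this was fixed in advance, since leaving out a mouse cannot turn a mean whose 4 mice share 1 sign. Using 1 dye orientation could not turn Mnat1 either, as all 8 of its arrays lay below 0. Some other alternatives leave the means unchanged. Mnat1 ranged from -0.84 with plain background subtraction to -0.51 with median centring. Ccnd2 ranged from 0.092 with no background correction to 0.44 with the authors' value table centred on the median of each array.

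**Figure D5:**
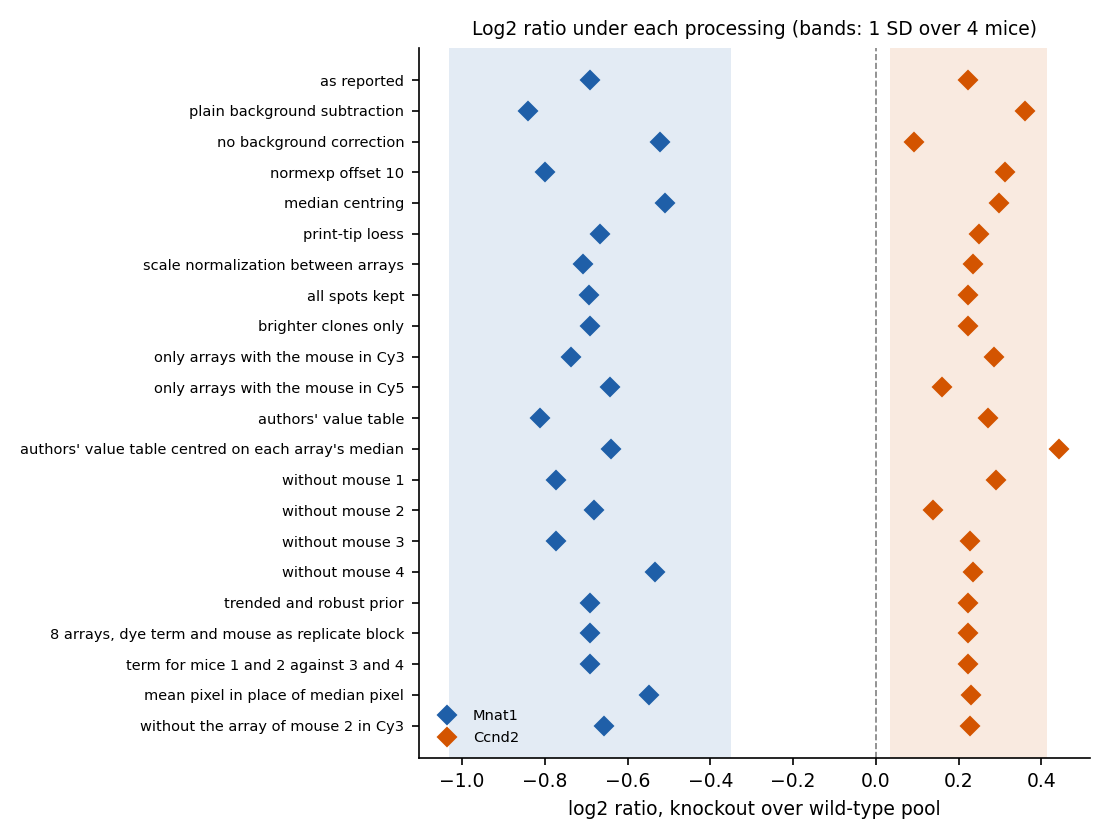
Log2 ratio of knockout over wild-type pool for Mnat1 (blue) and Ccnd2 (orange) as reported and under each of 21 alternatives, with bands of 1 SD over 4 mice around the reported means. All Mnat1 values lie within the band, and the highest Ccnd2 value, at 0.44, lies outside.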

How the data were processed

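The authors deposited 8 scanner files with median and mean pixel intensities of spot and local background per channel, on a linear scale without normalization, per the file headers; the percent of pixels above background and spot flags come from the same deposited files. No label names the image software. The authors' value table holds a score per spot, joined here by row order, which its fit to the scanner values bears out. Median intensities were corrected with normexp (offset 50) and loess-normalized within arrays in limma 3.58.1 (R 4.3.3), where flagged spots had weight 0 and were afterwards dropped. The dye labels set the sign, so that each log2 ratio is knockout over pool. Spots of a clone, then both arrays of each mouse, were averaged, so n = 4 mice. Clones with a value on all 8 arrays entered intercept-only limma fits, of the ratio and of the dye difference, with Benjamini-Hochberg adjustment and a threshold of 0.05. A gene of a list was represented by its brightest tested clone. The 2 intercept-only fits were run on simulated data with independent noise per array and no added spread between mice. How the fits behave with such a spread was therefore not tested. The replicate block, which used statmod 1.5.0, was not run on simulated data. The number of arrays limits the precision.

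Names came from unversioned RefSeq transcripts (964 of 20205 spots) or synonyms (500 spots) of the GRCm38.p6 gene table; 12429 accessions did not match and 6312 spots carry none. The files name no build, so no coordinates are given, and clone sequences were not used here. The members and lists were chosen with earlier results of these data known. Named are the pair, tested genes of the lists (at most 4 of the largest per list), and for each member the 3 named genes with the highest r over the arrays. Cdkn1b, Rb1, Letm1 and Gfra1 were added after their values were seen. No slide or scan date is recorded in the file headers. The batch that could be examined was the set of mice whose arrays carry spot flags. Alternatives covered background, normalization, flags, dim clones, dye orientation, the value table, each mouse left out, the variance prior and the use of 8 arrays.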

Additional observations from a re-analysis of the deposited data

How the results depend on the processing

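Across the 21 alternatives the log2 ratio of Mnat1 stayed within 1 SD of its reported value in 21 and that of Ccnd2 in 20. Part of this was fixed in advance. The ratios could not change with brighter clones only, another variance prior, the replicate block or a term for the sets of 2 mice. Leaving out 1 of 4 mice cannot move a mean by 1 SD. With the authors' value table centred on each array's median, chosen after seeing the data, Ccnd2 lay at 0.44. With 1 mouse left out, Mnat1 ran from -0.77 to -0.53 and Ccnd2 from 0.14 to 0.29. With 8 arrays and mouse as a replicate block, the members' ratios were -0.69 and 0.22 as reported, but the count of clones past the threshold was 169; that fit treats the arrays as 8 measurements and does not reduce them to 4 mice. The count, 0 of 8142 as reported, was 136 of 8142 with median centring and 119 among the 4071 brighter clones alone. It was 848 of 11326 with the mouse in Cy5 only and 0 of 9839 with the mouse in Cy3 only. With 1 orientation, dye and knockout cannot be told apart. The count was 87 of 8142 without mouse 1 and 0 with another mouse left out.

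The dye difference was computed in 15 of the alternatives, and its sign was not stable for either gene. That of Mnat1, given without a test, was 0.60 with median centring, its highest value, -0.24 with no background correction, -0.22 with print-tip loess and -0.056 with mean pixels. That of Ccnd2, which the choice of the gene may also limit, did not pass limma's threshold in any of the 15. It was 0.036 with no background correction, 0.034 with print-tip loess, 0.066 with mean pixels, 0.044 with median centring and 0.094 without mouse 1 (lowest -0.26, without mouse 3). Clones with a dye difference numbered 903 of 8142 as reported. With plain subtraction they numbered 0 of 7677, and 2087 had an unadjusted p under 0.05 in limma. The count was 428 of 8142 with normexp offset 10, 523 of 20160 when flagged spots stayed in and 542 of 4071 among brighter clones. Of 8142 clones it was 273 with a trended, robust prior and 445 with mean pixels. With 1 mouse left out it ran from 17 of 9501 to 744 of 8142. The number of clones tested thus differs between these counts. The cause of these changes was not tested. In the pool channel the Ccnd2 spot was at most 2.05 times its background, which limits its ratio.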
